A study of Mus musculus with 11 samples.

Results

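The 10 genes described here encode subunits of BAF complexes, the mammalian SWI/SNF family of ATP-dependent chromatin remodellers, and were taken as every probe of the array that carries the symbol Smarca2, Smarca4, Smarcc1, Smarcc2, Smarcd1, Smarcd3, Actl6a, Actl6b, Phf10 or Dpf1. They accounted for 23 of the 45281 probes, and 22 of those were bright enough to be tested. Messenger RNA was measured in basal progenitors, the neuron-producing dividing cells that lie away from the ventricular surface, sorted from embryonic mouse cortex at day 13 of gestation (E13, 6 arrays) and day 16 (E16, 5 arrays). An array held 1 embryo's cortex, and each stage drew on 3 litters. All 11 arrays carry the suffix WT, taken to mean wild type, and no treatment is named. The sources used here do not give the mouse strain, the sort marker or the litter of an embryo, so the p-values treat the embryos as independent.

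BAF complexes use the ATPase Smarca4 (Brg1) or its paralogue Smarca2 (Brm) to move nucleosomes, and around that core they carry subunits chosen from families of paralogues. As neural progenitors leave the cell cycle, the actin-related subunit Actl6a is exchanged for Actl6b, the double PHD finger subunit Phf10 for Dpf1 or Dpf3, and Ss18 for Ss18l1, a change known as the switch from the progenitor complex to the neuronal complex. In the mouse cortex the scaffold subunits Smarcc1 and Smarcc2 also compete for a place in the complex. For the comparison below Smarca4, Smarcc1, Smarcd1, Actl6a and Phf10 were taken as progenitor subunits and Smarca2, Smarcc2, Smarcd3, Actl6b and Dpf1 as neuronal subunits.

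At E16 the neuronal subunits Smarca2 and Smarcd3 were higher, by 0.50 and 0.48 on the log2 scale, and the progenitor subunit Actl6a differed by -0.52 on its brightest probe, while the other 7 subunits did not pass the test. A gene passed when its adjusted p was under 0.05 in a limma fit over all 10568 genes with the Benjamini-Hochberg adjustment, read from the brightest probe of the gene. Among the 5 progenitor subunits 0 rose and 1 fell, with a median difference of -0.21, and among the 5 neuronal subunits 2 rose and 0 fell, with a median of 0.08. Over all genes tested 13% rose and 14.1% fell, 27.1% in all, and the median difference was -0.005. The 3 of 10 subunits that passed thus lay near the share seen over all genes. The promoters of these 3 genes and of Actl6b, the counterpart of Actl6a, are shown here as the regulatory sequence of the members on which the comparison turns. Each runs 5′ to 3′ from 250 bases before to 50 bases after a RefSeq start on build GRCm38.p6. The Smarcd3, Actl6b and Smarca2 windows lie at starts inside the annotated genes (chr5:24592622-24624456, chr5:137553361-137569582 and chr19:26605073-26778321), not at their outermost 5′ ends. Capitals mark matches, on either strand, to the GC box GGGCGG, the CCAAT box CCAAT, the E-boxes CAGATG and CAGCTG and the E2F-type sequence TTCCCGCC, with overlapping matches counted separately.
Actl6a, chr3:32708296-32708595, plus strand: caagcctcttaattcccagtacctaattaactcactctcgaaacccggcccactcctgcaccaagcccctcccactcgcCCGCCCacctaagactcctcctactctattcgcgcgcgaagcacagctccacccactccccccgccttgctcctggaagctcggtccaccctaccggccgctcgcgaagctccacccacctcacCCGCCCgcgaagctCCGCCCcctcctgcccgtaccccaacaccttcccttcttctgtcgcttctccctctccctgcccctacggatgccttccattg
Actl6b, chr5:137553296-137553595, plus strand: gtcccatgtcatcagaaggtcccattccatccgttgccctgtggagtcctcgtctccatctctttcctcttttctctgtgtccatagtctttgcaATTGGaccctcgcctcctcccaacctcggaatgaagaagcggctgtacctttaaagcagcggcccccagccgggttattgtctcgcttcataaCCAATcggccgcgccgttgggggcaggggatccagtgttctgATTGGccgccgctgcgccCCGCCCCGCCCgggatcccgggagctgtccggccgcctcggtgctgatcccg
Smarca2, chr19:26604910-26605209, plus strand: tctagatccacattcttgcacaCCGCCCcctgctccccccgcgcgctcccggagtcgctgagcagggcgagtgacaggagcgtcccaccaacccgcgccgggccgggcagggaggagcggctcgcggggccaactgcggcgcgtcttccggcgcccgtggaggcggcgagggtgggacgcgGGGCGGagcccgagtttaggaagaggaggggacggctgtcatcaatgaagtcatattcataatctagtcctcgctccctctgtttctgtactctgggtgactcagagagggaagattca
Smarcd3, chr5:24601953-24602252, minus strand: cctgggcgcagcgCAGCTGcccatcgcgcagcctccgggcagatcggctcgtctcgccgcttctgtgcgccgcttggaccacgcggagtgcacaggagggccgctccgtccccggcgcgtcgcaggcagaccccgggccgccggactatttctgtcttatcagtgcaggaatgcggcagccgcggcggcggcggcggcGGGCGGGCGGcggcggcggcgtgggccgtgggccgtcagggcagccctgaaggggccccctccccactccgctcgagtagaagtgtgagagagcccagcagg

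The Actl6a promoter held 3 GC boxes and none of the other sequences, and that of Smarca2 held 2 GC boxes. The Smarcd3 promoter held 2 overlapping GC boxes and 1 CAGCTG. The Actl6b promoter held 2 overlapping GC boxes and 3 CCAAT boxes. Among the 32851 mouse promoters of the same length, 35.7% held a GC box, 37.4% a CCAAT box, 17.2% CAGATG, 16.3% CAGCTG and 2.19% the E2F-type sequence. The promoter of each of the 10 subunits matched by symbol, and TTCCCGCC was in 0 of the 10 windows.

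Each array detected between 43.6% and 45.5% of the probes at a detection p under 0.05, and the number of arrays limits the precision, with a median standard error of 0.126 for a log2 difference. E16 replicate 5 stood apart in a small set of probes, described with Smarcd1. Eomes, the transcription factor that defines basal progenitors, was detected on all 11 arrays and had a mean of 11.12 ± 0.264 (SD, n = 6) at the earlier and 10.37 ± 0.327 (SD, n = 5) at the later stage. Eomes differed by -0.75 (adjusted p = 0.00176 in limma). Of 13 measured basal progenitor markers 10, Eomes included, were lower and 1 was higher at E16, with a median of -0.69. Of 14 mitosis genes 13 were lower, with a median of -1.29, and their list means ran from 8.87 to 9.41 at E13 and from 7.69 to 8.03 at E16. Of 18 pan-neuronal genes 5 were higher and 6 lower, and the list means overlapped, from 11.15 to 11.40 at E13 and from 11.21 to 11.45 at E16. Pan-neuronal genes were thus read at both stages, and a subunit's signal, that of Actl6b included, cannot be assigned to dividing cells alone. Markers of Cajal-Retzius cells, which lie under the pia and make reelin, were lower in 6 of 7 cases with list means from 9.56 to 10.29 at E13 and from 7.32 to 8.24 at E16. Radial glia markers were higher in 4 and lower in 3 of 13 cases, with list means from 7.27 to 7.57 at E13 and from 7.49 to 7.63 at E16. Of 3 measured genes of the oligodendrocyte lineage 1 was higher (list means 6.03 to 6.38 and 6.36 to 6.74), of 5 interneuron markers 1 was higher and 2 lower, and of 2 microglial markers 0 passed. The haemoglobin gene Hba-a1 read from 5.08 to 9.55 at E13 and from 9.22 to 10.97 at E16. None of the 6 endothelial markers was bright enough to be tested. The part of these cell type differences in the results below was not tested. Each fit was repeated with the pan-neuronal list mean of the array as a covariate. Because that mean overlapped between the stages, this covariate could change a stage difference little. It also does not adjust for the mitosis, basal progenitor or Cajal-Retzius lists, which moved. In sorted cells measured in bulk, fewer cells of a type and less RNA per cell cannot be told apart.

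**Figure D1:**
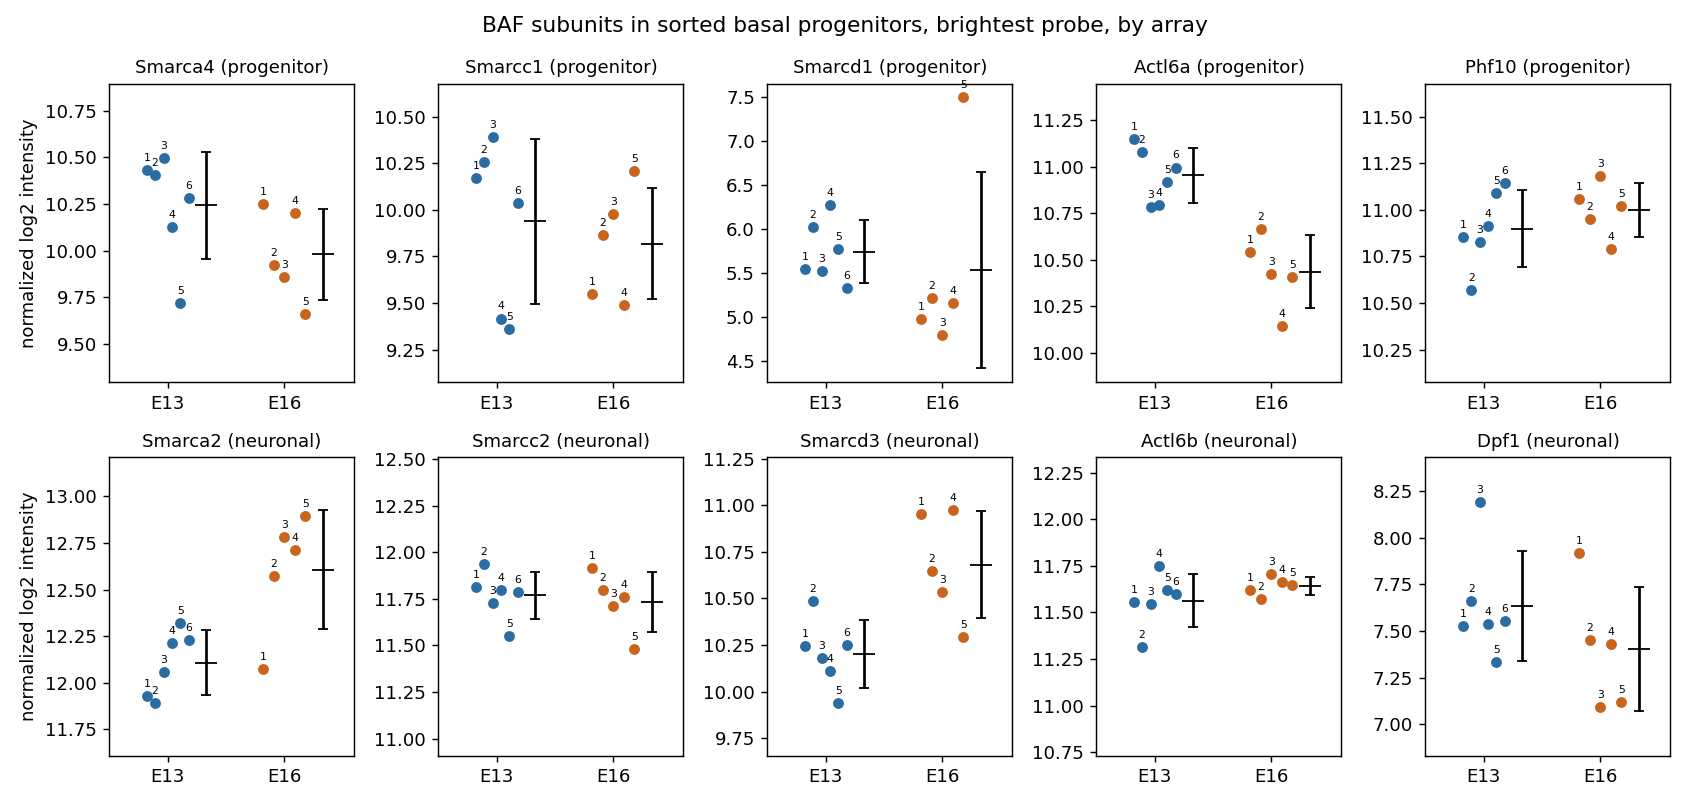
Normalized log2 intensity of the brightest probe of each of the 10 BAF subunits, with progenitor subunits above and neuronal subunits below. Each point is an array labelled by its replicate number (E13, n = 6, blue; E16, n = 5, orange), and the bars show the mean and SD; every panel has its own axis. Actl6a arrays do not overlap between the stages, Smarca2 and Smarcd3 are mostly higher at E16, and Smarcd1 on E16 replicate 5 stands at 7.50, above every other array.

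Of the ATPases, Smarca2 was the member with the most probes that moved. Its brightest probe read 11.89 at the lowest, 12.14 at the median and 12.32 at the highest of the E13 arrays. On E13 replicates 1 to 3 it read from 11.89 to 12.06, and on replicates 4 to 6 from 12.21 to 12.32. At E16 it read 12.07, 12.57, 12.78, 12.71 and 12.89 on replicates 1 to 5. At E16 replicates 2 to 5 lay above every E13 array, and E16 replicate 1 lay within the E13 range. The mean rose from 12.11 ± 0.175 (SD, n = 6) to 12.61 ± 0.320 (SD, n = 5), by 0.50 (SE 0.128, 1.42-fold, adjusted p = 0.00887 in limma). Without E16 replicate 1 the difference was 0.63 (adjusted p = 2.61e-04).

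The other Smarca2 probes had the same sign. A probe annotated to the transcript variant NM_026003 read from 5.72 to 6.27 at E13 with a median of 5.87, and 6.51, 6.71, 7.05, 7.07 and 6.98 on the E16 replicates. Its stages did not overlap, as held for 14.1% of all kept probes, and its difference of 0.91 (SE 0.153, adjusted p = 6.50e-04 over all probes in limma) was the largest of all 22 member probes. A probe of NM_011416 with E13 values from 7.24 to 8.01 and E16 values from 7.84 to 8.63 rose by 0.66 (adjusted p = 0.0127). The fourth, also of NM_011416, differed by 0.30 (95% confidence interval -0.001 to 0.61, adjusted p = 0.146). The fifth, detected on 1 E13 array and 2 E16 arrays, was not tested. Taking the mean of the kept probes of each gene gave 0.59 for Smarca2 (adjusted p = 1.31e-04). With the pan-neuronal covariate the brightest probe gave 0.48 (adjusted p = 0.00575).

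Smarca4, the ATPase that mouse neural progenitors need for self-renewal, did not pass. It read from 9.72 to 10.50 at E13, with a median of 10.34, and 10.25, 9.92, 9.86, 10.20 and 9.66 on the E16 replicates, so the stages overlapped. On E13 replicates 1 to 3 Smarca4 read from 10.40 to 10.50, and on replicates 4 to 6 from 9.72 to 10.28. Its single probe differed by -0.26 (SE 0.142, 95% confidence interval -0.57 to 0.04, adjusted p = 0.188). The lowest E13 array was replicate 5, and without it the difference was -0.37 and passed (adjusted p = 0.0365).

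The actin-related subunits gave different results for the progenitor and the neuronal gene, and the Actl6a probes disagreed. The brightest Actl6a probe read from 10.79 to 11.15 at E13, with a median of 10.96, and 10.54, 10.67, 10.42, 10.14 and 10.41 on the E16 replicates. Every E16 array was below every E13 array, which held for 17% of all genes in one direction or the other. From a mean of 10.95 ± 0.148 (SD, n = 6) to one of 10.44 ± 0.194 (SD, n = 5) it fell by 0.52 (SE 0.0988, 0.699-fold, adjusted p = 0.00120). The second Actl6a probe, annotated to the same transcript NM_019673, read from 9.54 to 10.04 at E13 and from 9.67 to 10.11 at E16, with a median of 9.76 and 9.96. It differed by 0.15 (95% confidence interval -0.09 to 0.39, adjusted p = 0.381), so its interval lay above that of the brightest probe, -0.73 to -0.30 in the same fit. With the mean of both probes Actl6a differed by -0.18 and did not pass (adjusted p = 0.123). The sources used here do not place the probes within the transcript. With the pan-neuronal covariate the brightest probe gave -0.52 (adjusted p = 0.00177).

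Actl6b, the neuron-specific paralogue that supports dendrite growth in mouse neurons, was detected on all 11 arrays by all 4 of its probes. The brightest read from 11.32 to 11.75 at E13, with a median of 11.58, and 11.62, 11.57, 11.71, 11.66 and 11.65 on the E16 replicates. All of the E16 values lay within the E13 range, and the difference was 0.08 (95% confidence interval -0.08 to 0.24, adjusted p = 0.475). The other probes differed by 0.03, -0.22 and -0.27, with adjusted p of 0.834, 0.316 and 0.278. The mean of the 4 probes gave -0.10 (adjusted p = 0.529), so the sign depended on the probe.

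The PHD finger subunits did not pass in either direction. Phf10 read from 10.57 to 11.14 at E13, with a median of 10.88, and 11.06, 10.95, 11.18, 10.79 and 11.02 on the E16 replicates, a difference of 0.10 (95% confidence interval -0.12 to 0.32, adjusted p = 0.512). Its second probe differed by 0.06 (adjusted p = 0.798). Dpf1, which is enriched in neurons, read from 7.34 to 8.19 at E13, with a median of 7.54, and 7.92, 7.45, 7.09, 7.43 and 7.12 on the E16 replicates. It differed by -0.23 (95% confidence interval -0.60 to 0.14, adjusted p = 0.352), and its second probe by -0.18 (adjusted p = 0.418). Both stages overlapped for every probe of these genes.

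**Figure D2:**
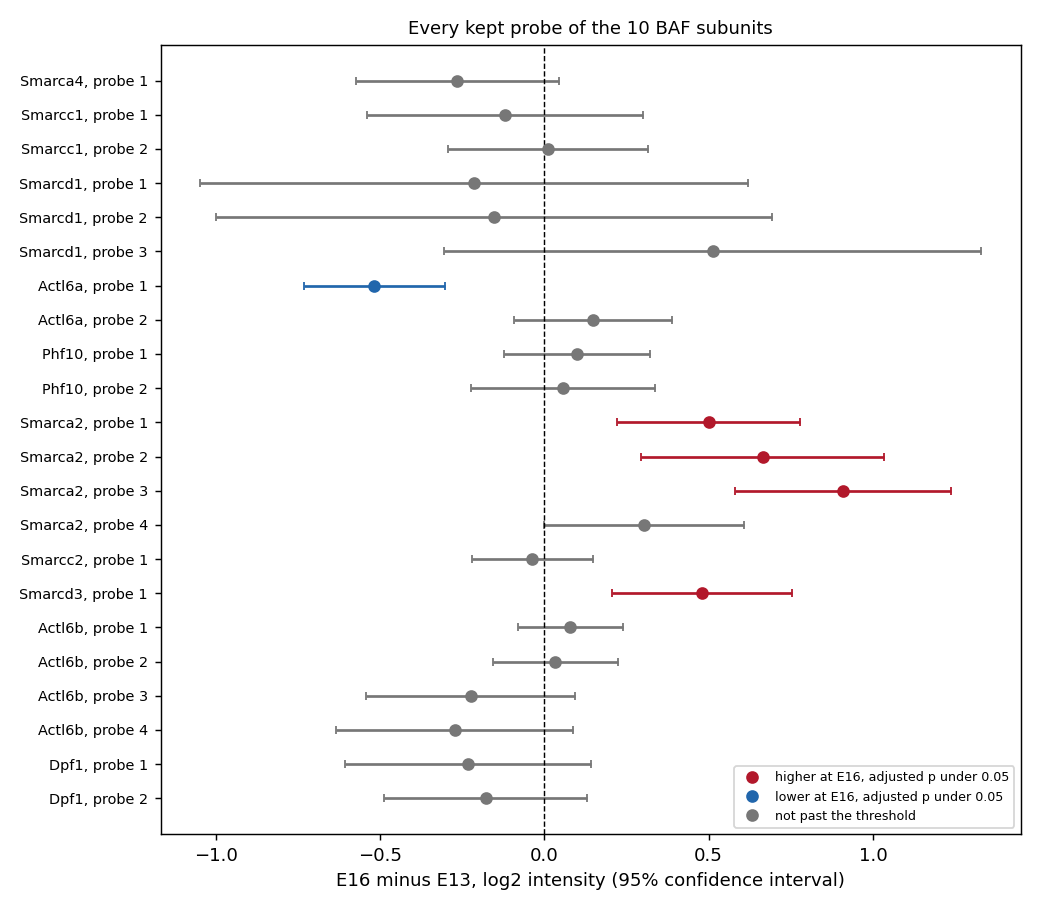
Difference E16 minus E13 in log2 intensity for the 22 kept probes of the 10 subunits, numbered from the brightest probe of each gene, with 95% confidence intervals from the limma fit over all 20599 kept probes. Red and blue mark adjusted p under 0.05. Of these probes 4 are higher (3 of Smarca2 and the Smarcd3 probe) and 1 is lower (Actl6a), and the intervals of the Actl6a probes do not meet.

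Over the probes, 4 of 22 were higher and 1 was lower at E16, where 10.7% and 11.9% of all 20599 kept probes were higher and lower (22.6% in all). The 4 that rose came from Smarca2 and Smarcd3, and the probes of 1 gene share a target and are not independent.

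Among the scaffold subunits, which hold the complex together, neither gene passed. Smarcc2 read from 11.55 to 11.94 at E13, with a median of 11.79, and 11.91, 11.80, 11.71, 11.76 and 11.48 on the E16 replicates. Its difference of -0.04 had a 95% confidence interval from -0.22 to 0.15 (adjusted p = 0.795). Smarcc1 read 10.17, 10.26, 10.39, 9.42, 9.36 and 10.04 on E13 replicates 1 to 6 and 9.55, 9.87, 9.98, 9.49 and 10.21 on the E16 replicates. E13 replicates 4 and 5 were the lowest of all arrays, so the SD at E13 was 0.442 against 0.127 for Smarcc2. The second Smarcc1 probe was also lowest on these arrays, at 7.36 and 7.10, where the other 9 arrays read from 7.46 to 7.85. Smarcc1 differed by -0.12 (95% confidence interval -0.53 to 0.29, adjusted p = 0.694) and its second probe by 0.01 (adjusted p = 0.965).

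Smarcd3, a subunit also known for its part in heart and neural development, rose. It read from 9.94 to 10.49 at E13, with a median of 10.21, and 10.95, 10.65, 10.53, 10.97 and 10.29 on the E16 replicates. Replicates 1 to 4 at E16 were above every E13 array, and replicate 5 was within the E13 range. Its mean rose from 10.20 ± 0.181 (SD, n = 6) to 10.68 ± 0.287 (SD, n = 5), by 0.48 (SE 0.126, 1.39-fold, adjusted p = 0.0105). With the pan-neuronal covariate the difference was 0.51 (adjusted p = 2.06e-04).

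Smarcd1, its paralogue, was dim and was set by 1 array. Its brightest probe read from 5.33 to 6.28 at E13, with a median of 5.66, and 4.98, 5.22, 4.80, 5.16 and 7.50 on the E16 replicates. Its detection p was under 0.05 on every E13 array but on only 3 of 5 at E16. The first 4 E16 arrays lay below every E13 array and replicate 5 lay above all of them. Over all arrays the difference was -0.21 (SE 0.383, 95% confidence interval -1.03 to 0.60, adjusted p = 0.729). Without E16 replicate 5 the difference was -0.71 and passed (adjusted p = 0.00988), but the probe was detected on only 2 of the 4 remaining E16 arrays, so the size of that difference is limited by the background.

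The other Smarcd1 probes were high on the same array. They read 7.20 and 7.57 on E16 replicate 5, where the remaining 10 arrays read at most 5.70 and 5.25. Without that array neither was detected on the 5 arrays needed for testing. On those 10 arrays the third probe read from 4.72 to 5.25 at E13 and from 4.89 to 5.18 at E16, with no separation of the stages. As deposited, before any normalization, the 3 probes had intensities of 139.6, 110.1 and 147.1 on that array and at most 71.2, 41.5 and 18.9 on the others. Across the table, 47 of 20599 kept probes (0.228%) were at least 1 log2 unit above every other array on E16 replicate 5, and between 0 and 4 on each of the other arrays. The third Smarcd1 probe had the widest margin of those 47, at 2.32, and Smarcd1 was the only named gene with 3 probes among them. However, the probes at 7.20 and 7.57 were kept only because they were detected on E16 replicate 5. The same array thus selected these probes and gave their high values, so nothing is concluded from that rank or the count of 3. How many of the 47 were kept in this way was not tested.

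**Figure D3:**
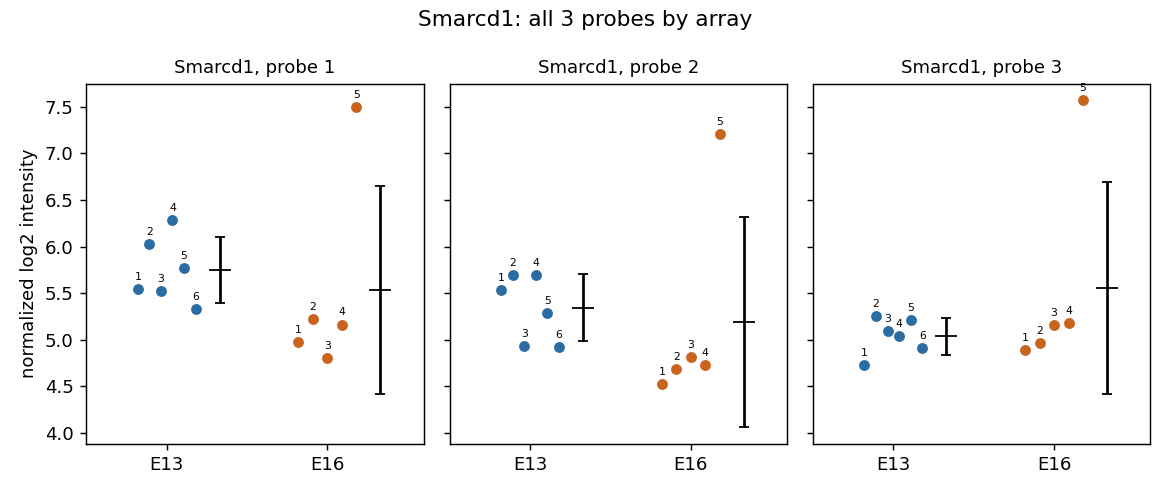
Normalized log2 intensity of the 3 Smarcd1 probes, numbered from the brightest, by array (E13, n = 6, blue; E16, n = 5, orange; numbers are replicates, bars the mean and SD). E16 replicate 5 reads 7.50, 7.20 and 7.57, above all other arrays on each probe.

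To set the neuronal subunits against the progenitor subunits, the log2 difference of each pair of paralogues was taken within each array. Levels of different probes cannot be compared, so only the shift between the stages is read, as a description with no test. Smarca2 over Smarca4 shifted by 0.76, from 1.86 ± 0.440 (SD, n = 6) to 2.63 ± 0.529 (SD, n = 5), and 3 of 5 E16 arrays lay above every E13 array. Within E13 this pair also differed between arrays, from 1.49 to 1.56 on replicates 1 to 3 and from 1.95 to 2.60 on replicates 4 to 6. Actl6b over Actl6a shifted by 0.60, from 0.61 ± 0.256 to 1.21 ± 0.230, and 4 of 5 E16 arrays lay above every E13 array. With the mean of all kept probes of both genes that shift was 0.09.

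Smarcd3 over Smarcd1 shifted by 0.69 with an E16 SD of 1.33. On this pair 4 of 5 E16 arrays lay above every E13 array and replicate 5, at 2.80, lay below them all. Without E16 replicate 5 the shift was 1.29, with Smarcd1 not detected on 2 of the 4 remaining E16 arrays, so its size is limited by the background. Smarcc2 over Smarcc1 shifted by 0.08, from 1.83 ± 0.384 to 1.92 ± 0.439, and ran from -0.03 without E16 replicate 1 to 0.24 without E16 replicate 5, so it had no stable sign. Dpf1 over Phf10 shifted the other way, by -0.33, from -3.26 ± 0.421 to -3.60 ± 0.391, and the stages overlapped for all 5 pairs.

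**Figure D4:**
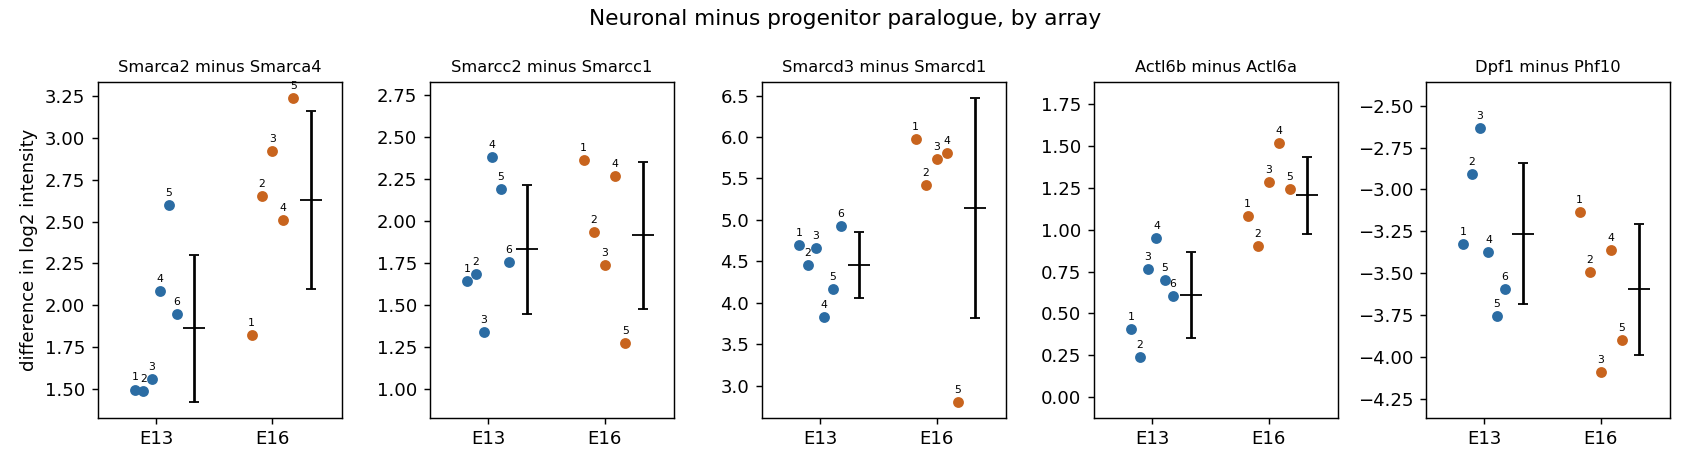
Log2 intensity of the neuronal paralogue minus that of the progenitor paralogue within each array, brightest probes, for the 5 pairs (E13, n = 6, blue; E16, n = 5, orange; numbers are replicates, bars the mean and SD). The shift between the stages is 0.76 for Smarca2 over Smarca4, 0.60 for Actl6b over Actl6a, 0.69 for Smarcd3 over Smarcd1, 0.08 for Smarcc2 over Smarcc1 and -0.33 for Dpf1 over Phf10.

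The switch also exchanges Ss18 for Ss18l1, and here the progenitor gene fell. Ss18 read from 10.98 to 11.38 at E13 and 10.58, 10.73, 10.79, 10.54 and 10.79 at E16. Its stages did not overlap, as held for 17% of all genes. It differed by -0.48 (SE 0.0847, adjusted p = 6.36e-04), and both of its probes fell. Ss18l1, also known as Crest, a calcium-responsive coactivator, differed by 0.13 (95% confidence interval -0.04 to 0.30, adjusted p = 0.247). Its 3 probes ranged from -0.34 to 0.13 and 0 of them passed. The single Dpf2 probe was detected on no array, and of the 3 Dpf3 probes 1 was detected on 1 E16 array, so neither gene was tested.

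Of 19 measured genes among the other BAF subunits and partners, 2 rose and 4 fell (10.5% and 21.1%), with a median of 0.05, where 13% and 14.1% of all genes rose and fell. The DNA-binding subunit Arid1b, whose loss affects human neurodevelopment, rose by 0.38 (adjusted p = 0.00433). It read from 11.53 to 11.86 at E13 and from 11.81 to 12.29 at E16, and its other probe differed by 0.13 (adjusted p = 0.440). Its paralogue Arid1a differed by -0.15 (adjusted p = 0.416). Bicral, a subunit of the non-canonical complex, rose by 0.55 (adjusted p = 3.17e-04). Brd7, a bromodomain subunit of the polybromo complex, fell by 0.30 (adjusted p = 0.00676) on its brightest probe, and its other probe gave -0.32.

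Smarcd2, the third Smarcd paralogue, was lower by -0.35 (adjusted p = 0.0361), a call that was lost in 11 of 23 alternatives (adjusted p between 0.0507 and 0.0898 there). Bcl11b, a zinc finger factor that is also a marker of deep-layer neurons and binds BAF complexes, was lower by -0.43 (adjusted p = 0.0142) on its brightest probe. Its other 3 probes differed by -0.32 (adjusted p = 0.145), -1.03 and -0.93. The stages did not overlap on the last pair, as held for 14.1% of all kept probes. On E13 replicates 1 to 3 Bcl11b read from 13.09 to 13.16 and on replicates 4 to 6 from 13.58 to 13.62. The core subunits Smarcb1 (-0.23, adjusted p = 0.0971) and Smarce1 (-0.16, adjusted p = 0.112) did not pass. Of the 23 alternatives 2 took Smarcb1 past the threshold, leaving out E16 replicate 4 (-0.33, adjusted p = 0.00663) and array quality weights (-0.24, adjusted p = 0.0478). Likewise 2 did so for Smarce1, leaving out E13 replicate 6 (-0.20, adjusted p = 0.0451) and centring on the median of all probes (-0.25, adjusted p = 0.0416).

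**Figure D5:**
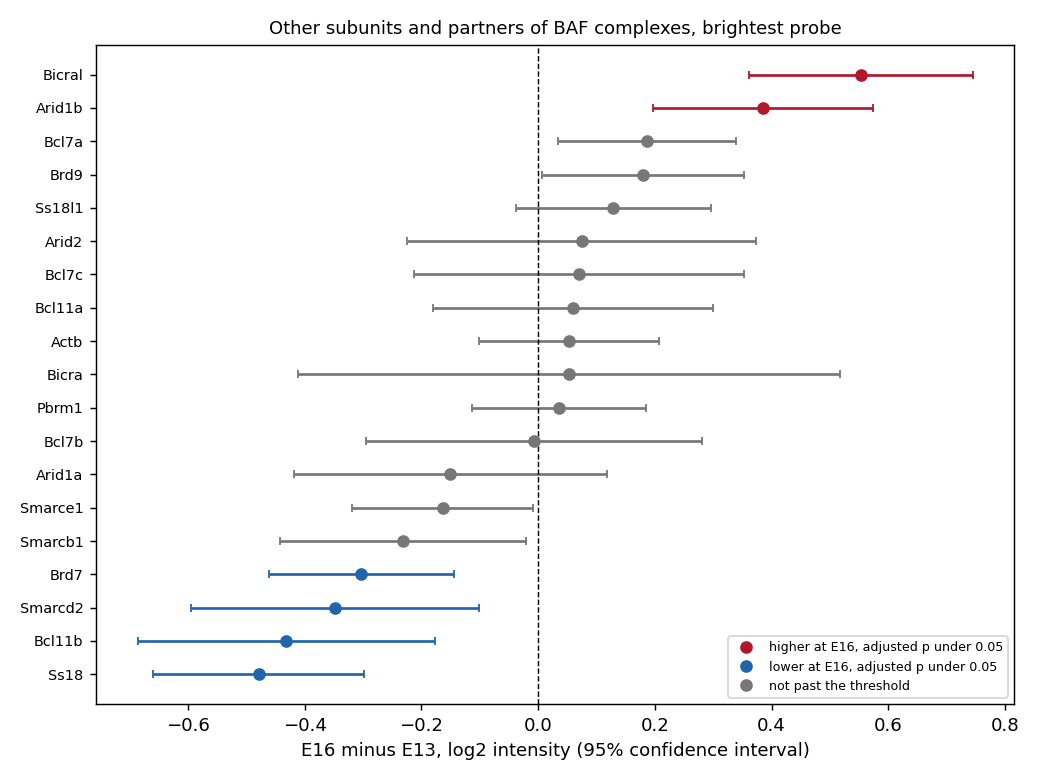
Difference E16 minus E13 in log2 intensity, with 95% confidence intervals, for the 19 measured genes among the other BAF subunits and partners, brightest probe of each. Bicral and Arid1b are higher and Brd7, Smarcd2, Bcl11b and Ss18 lower at adjusted p under 0.05.

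In the other remodelling families 0% to 11.8% of the measured genes were higher and 5.88% to 21.1% lower, where 13% and 14.1% of all genes were. Of 9 measured genes of the ISWI family, which spaces nucleosomes, 1 fell, the ATPase Smarca5 (-0.56, adjusted p = 0.0446), a call lost in 11 of 23 alternatives. Of 17 genes of the CHD and NuRD families, 2 rose and 1 fell. Gatad2b, a NuRD subunit, rose by 1.19 (adjusted p = 3.49e-04) and the neuronal CHD protein Chd5 by 0.67 (adjusted p = 8.48e-04). Mbd2, which binds methylated DNA, was lower by -0.73 (adjusted p = 1.55e-04). Of 19 INO80 and SRCAP genes 1 rose and 4 fell. The actin-related protein Actr5 rose by 0.69 (adjusted p = 0.00490) on 1 of 3 probes, and with the mean of its probes it differed by 0.12 (adjusted p = 0.391). The YEATS-domain protein Yeats4 (-0.43, adjusted p = 4.38e-04) and Znhit1 (-0.43, adjusted p = 0.0174) were lower. Leaving out single arrays moved these counts, between 0 and 2 genes higher and 0 and 1 lower for ISWI, 2 to 3 and 1 to 2 for CHD and NuRD, and 1 to 2 and 2 to 4 for INO80 and SRCAP. The medians of these 3 lists were -0.02, 0.000594 and -0.12.

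Rest, a repressor of neuronal genes that acts upstream of the subunit exchange, had 1 probe, which was detected on no array. Its corepressors Rcor1 and Rcor2 differed by 0.18 (adjusted p = 0.189) and 0.03 (adjusted p = 0.894). The splicing regulators Ptbp1 and Ptbp2, which are exchanged as neurons form, differed by 0.19 (adjusted p = 0.224) and -0.18 (adjusted p = 0.662). The other Ptbp2 probe differed by -0.54 (95% confidence interval -0.97 to -0.12, adjusted p = 0.0644 over all probes in limma). Of 11 measured genes of this list 1 rose, the phosphatase Ctdsp2 (0.33, adjusted p = 0.0359), a call lost in 12 of 23 alternatives, and 0 fell. Without E16 replicate 5 the brightest Ptbp1 probe passed, at 0.29 (adjusted p = 0.0328). Over all arrays the 10 Ptbp1 probes ranged from -0.09 to 0.19 and 0 of them passed.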

How the data were processed

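RNA of sorted basal progenitors was biotin-labelled and hybridised to Illumina bead arrays, per the labels' protocols. The authors deposited raw probe intensities on a linear scale, not normalized between arrays. Values below 0 show that a background had been subtracted before deposit. A detection p-value stands beside each intensity, per the file headers. The deposited series value table holds quantile-normalized log2 values for 16554 probes and was used as an alternative. The sources used here do not name the scanner software or its settings.

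Gene symbols came from the platform annotation (34885 of 45281 with 1 gene symbol, 18 with several, 10378 not listed). Matching Entrez identifiers to GRCm38.p6 changed 0 symbols. Intensities were background corrected with normexp, quantile normalized and log2 transformed with neqc of limma 3.58.1 in R 4.3.3, using an offset of 16. Probes with a detection p under 0.05 on at least 5 arrays were kept (20599), and the brightest probe of each gene was tested (10568 genes) with lmFit and eBayes with a variance trend. P-values were two-sided and Benjamini-Hochberg adjusted over all genes, or over all kept probes in probe-level fits. The fit was tested on simulated data.

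The members, the gene lists, the division into progenitor and neuronal subunits and the tests were chosen with earlier results of these data known. Named genes were all 10 members, all other BAF genes past the threshold, 8 further BAF subunits, 5 regulators and Eomes whatever their result, and up to 3 genes past the threshold from each other list. Alternatives covered normalization, background, detection filter, probe summary, weights, variance model, a replicate block, a pan-neuronal covariate and leaving out each array. Sequences are from RefSeq.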

Additional observations from a re-analysis of the deposited data

Results flagged for a closer look

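Most of the values that stood apart came from 1 array. Among 100 groups of arrays examined (each kept member probe, named gene and paralogue pair at each stage), 5 had an array farther from its neighbours than the Dixon 95% limit, where chance gives about 1 in 20. All 3 Smarcd1 probes stood apart on E16 replicate 5, at 7.50, 7.20 and 7.57, as did the Smarcd3 over Smarcd1 difference, at 2.80. The probes at 7.20 and 7.57 were detected on the 5 arrays needed for testing only because of that array. The difference at 2.80 reuses the Smarcd1 value of 7.50. These values are thus 1 gene on 1 array and are not independent, so the count of 5 cannot be weighed against chance. The cause of the high Smarcd1 values was not tested. The core subunit Smarce1 was low on E16 replicate 1, at 12.20, where the other E16 arrays read from 12.37 to 12.42.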

How the results depend on the processing

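The calls of Smarca2 and Smarcd3 held in all 23 alternatives at the gene level, with adjusted p up to 0.0402 and 0.0311. Actl6a held in 22 and was lost with the mean of its kept probes (-0.18, adjusted p = 0.123), which left 0 progenitor subunits lower. Leaving out an array gave 1 to 2 progenitor subunits lower, since Smarca4 passed without E13 replicate 5 and Smarcd1 without E16 replicate 5. With every probe counted on its own, 4 neuronal subunit probes were higher, 2194 and 2455 of all probes were higher and lower, and 14 and 18 probes of the other BAF, ISWI, CHD, INO80 and REST lists. Those lists had 6 genes higher and 10 lower, 6 lower with no detection filter, and 5 to 10 higher and 6 to 10 lower when 1 array was left out (10 higher without E13 replicate 6, 6 lower without E16 replicate 3). The Actl6b over Actl6a shift was 0.0876 with the mean of the probes. Centring each array on the median of all probes, an alternative chosen after seeing the data, gave 966 genes higher and 1616 lower, a higher share of 37.4% in place of 47.9%, with a median of -0.05 over all genes. Under it the brightest Smarca2 probe no longer passed in the fit over all probes (0.42, adjusted p = 0.0526).

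Replicate numbers are shared between the stages, but the labels name nothing else that same-numbered arrays share. Same-numbered arrays deviated together with correlations from -0.1 to 0.143, which cannot settle whether they were processed together. With the replicate block (10 arrays) 1164 genes were higher and 1293 lower, against 1373 and 1495. Brd7 (adjusted p = 0.0507) and Smarcd2 (0.0535) did not pass under it. Of the 5 E16 arrays 1 correlated best with its own number. Smarcd1 gave no value in the authors' value table or under the strict detection filter, and differed by 0.05 with the mean of its probes (adjusted p = 0.941). Outside E16 replicate 5, its E16 values (4.53 to 5.22) lay near the lowest detected signals (5.09 to 5.19).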
